A study of Rattus norvegicus with 2 samples.

Results

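A set of 10 genes that mark fibroblasts and mesenchymal progenitor cells was followed in acetabular cartilage of young rats. They were taken by name from the deposited table of 17337 genes, and all 10 were found. They comprise 5 genes of the cell surface (Pdgfra, Thy1, Fap, Pi16 and Cd34), 3 transcription factors of mesenchyme (Twist1, Twist2 and Prrx1) and 2 genes of intracellular proteins (S100a4 and Vim). The control library held pooled RNA of 4 Wistar rats that had been raised without restraint. The DA-DDH library held pooled RNA of 5 Wistar rats whose hind limbs had been swaddled with hips adducted and extended and knees extended for 10 days from birth, a model of hip dislocation, after which they moved freely. Cartilage of both acetabula was collected under a microscope at 3 weeks of age, taking care to leave out bone, marrow and soft tissue. With 1 library per condition, no difference below has a replicate check and no test of the conditions was possible.

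Fibroblasts make and anchor the fibrous matrix of connective tissue, and their progenitors lie in the perichondrium, in the synovium and around vessels. No single gene marks them. Surface proteins are used to sort them, transcription factors such as Prrx1 and the Twist proteins act in the limb mesenchyme from which cartilage and its fibrous coverings both arise, and vimentin fills the cytoplasm of nearly every mesenchymal cell, chondrocytes included. Several of these genes are shared with other cells, Cd34 with endothelium, Thy1 with neurons and S100a4 with leukocytes.

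Read counts recovered from the deposited values came to 796723 for the control and 833869 for the DA-DDH library. The tissue label was met by its defining markers: 12 chondrocyte genes held 34.5% of the control and 14.4% of the DA-DDH reads, most of them from Col2a1. Ratios of DA-DDH to control were scaled by TMM, a trimmed mean that ignores the extreme genes, and are given as log2 values with 0.5 reads added as a prior. Total-count scaling moved those of the 10 genes up by 0.31 (Twist2) to 0.43 (Vim), and by less where reads were few, since the prior weighs more there. A gene entered a count when either library held 30 or more of its reads, which was so for 4375 genes. Intervals are 95% exact intervals for counting error only and leave out variation between rats, litters and dissections. In bulk tissue, more cells of a type and more RNA per cell cannot be told apart.

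Of the 10 genes, 9 had a log2 ratio above 0, and 1, Fap, was lower in the DA-DDH library. The 9 include Pi16 and Twist2, which were below the floor. The share of all genes above 0 without a floor was not computed. The direction of each of the 10 genes held under every scaling and prior tried. For all but Fap this was fixed in advance. The other scalings moved the ratios up or hardly at all, and the prior cannot turn a sign. The floor was reached by 8, of which 7 were above 0, beside 52.6% of all genes at the floor. Of the 8, 2 (Cd34 and Twist1) were more than 2-fold higher, beside 4.82% of all genes at the floor. None of them was more than 2-fold lower, beside 3.04% of all genes. With total-count scaling 5 were more than 2-fold higher, beside 14.6% of all genes, and none lower, beside 1.07%. At 1.5-fold 5 were higher, beside 14.4%, and Fap was lower, beside 10.3%. With a floor of 100 reads Cd34 alone was more than 2-fold higher, beside 2.89% of all genes at that floor. It reached that floor through the DA-DDH library only (55 and 159 reads), so its place there is in part set by the floor. The median log2 ratio of the 8 genes was 0.80, and the median of all genes at the floor was 0.03, with a 25th percentile of -0.28 and a 75th of 0.37. Twist1 reached the floor through the DA-DDH library alone, so its place among the higher genes is in part set by the floor. For 7 of the 10 genes the whole interval lay above 0, and for Pdgfra and Twist2 it included 0. The 7 include Pi16, which was below the floor, and Twist1. The share of all genes with such an interval was not computed, so this count says nothing particular to the set. No annotated exon of any of the 10 genes overlaps an exon of another gene in the table.

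**Figure D1:**
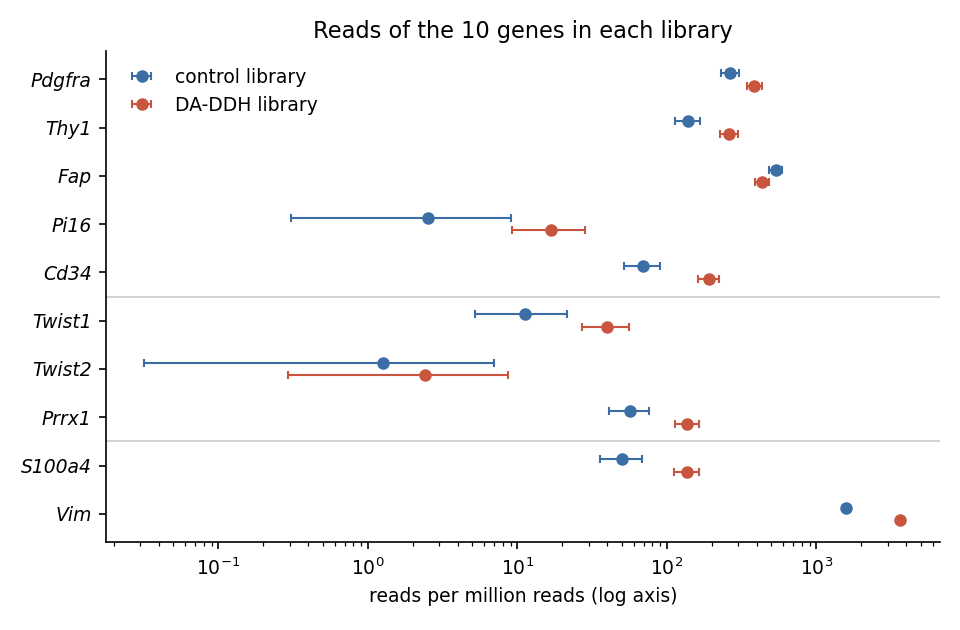
Reads per 1000000 reads (log axis) of the 10 genes in the control and the DA-DDH library, with 95% exact Poisson intervals for counting error; grey lines part surface genes, transcription factors and intracellular proteins. Vim stands highest, at 1587 and 3599 reads per 1000000, and Fap is the gene with the lower value in the DA-DDH library. Values are per total reads of each library, without TMM scaling, so differences between the libraries look larger upward than the reported ratios.

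The surface genes did not move together. Pdgfra, the receptor tyrosine kinase through which platelet-derived growth factors act on mesenchymal cells, had 212 control and 321 DA-DDH reads, which gave a log2 ratio of 0.11 (interval -0.15 to 0.36). It lay close to the middle of the distribution, above 56.4% of all genes at the floor. Thy1, the glycoprotein CD90 of fibroblasts and stromal cells, had 110 and 218 reads, at 0.49 (interval 0.16 to 0.84). Cd34, a sialomucin of endothelium, blood cell precursors and some stromal fibroblasts, had 55 and 159 reads, at 1.03 (interval 0.59 to 1.51), above 95.7% of genes. Pi16, which marks adventitial fibroblast progenitors in the mouse, had 2 and 14 reads, too few for the floor, and its interval ran from 0.19 to 5.50. With TMM scaling the libraries thus differ little in the broad marker Pdgfra and more in Cd34. With total-count scaling Pdgfra was at 0.53, outside its interval, and Cd34 at 1.46. For Pi16 the size of the difference is hardly constrained. In the genome build rn6 of the deposited table, Pdgfra lies on chromosome 14 from 35527926 to 35581031 (minus strand, 23 exons), Thy1 on chromosome 8 from 48382121 to 48386935, Cd34 on chromosome 13 from 113692131 to 113711259 and Pi16 on chromosome 20 from 6923498 to 6932786.

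Fap went the other way. It encodes fibroblast activation protein, a serine protease of the plasma membrane. Its 26 exons span bases 48467781 to 48536242 of chromosome 3 in rn6, minus strand. It was the surface gene with the most reads in both libraries, with 426 control and 360 DA-DDH reads. Its log2 ratio was -0.73 (interval -0.94 to -0.53), which is 1.66-fold lower. Only 6.79% of all genes at the floor had a lower ratio. With total-count scaling its ratio was -0.31, so the direction was kept. Counted against Fap within each library, which needs no scaling between libraries, Pdgfra went from 0.498 to 0.892 reads per Fap read, a log2 change of 0.84 (interval 0.51 to 1.17). Thy1 went from 0.258 to 0.606 (1.23, interval 0.83 to 1.63) and Cd34 from 0.129 to 0.442 (1.77, interval 1.27 to 2.29). Pi16 went from 0.00469 to 0.0389 (3.05, interval 0.91 to 6.24). Each of the other surface genes therefore gained on Fap, as had to be so with Fap the 1 gene below 0. These ratios give the sizes and are no further support for its direction. Sox9, the transcription factor required for cartilage, was lower still, with 595 and 348 reads, and Fap went from 0.716 to 1.03 reads per Sox9 read, a log2 change of 0.53 (interval 0.25 to 0.82).

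The bases just before the annotated start of Fap are shown because it is the gene that differs from the rest in direction. They are from RefSeq on build GRCr8 (chr3:67616092-67616191, minus strand), not the build of the deposited table, and 9 of the 10 genes have an entry. Capitals mark the motif CANNTG, the E-box that Twist dimers and other basic helix-loop-helix proteins can bind, searched on both strands:
Fap: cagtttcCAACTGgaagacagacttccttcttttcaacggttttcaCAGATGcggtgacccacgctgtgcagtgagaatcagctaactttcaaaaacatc
The motif begins 93 and 54 bases before the start. In the same 100 bases of all 33469 promoters it was found in 33.8%, and among the 9 genes in Fap and Pdgfra. A match is a run of letters and not a measured binding site.

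The transcription factors were present at low levels, and Prrx1 and Twist1 were higher in the DA-DDH library. Prrx1, a homeobox factor that marks limb mesenchyme, spans bases 81147038 to 81214822 of chromosome 13 in rn6 (minus strand) and counted 45 control and 114 DA-DDH reads, at 0.84 (interval 0.34 to 1.38), above 92.5% of genes at the floor. Twist1, a basic helix-loop-helix factor of mesenchyme and of the cranial sutures, lies on chromosome 6 from 53401241 to 53403234 and had 9 and 33 reads, at 1.34 (interval 0.29 to 2.63). Its fold could therefore be small or large on counting error alone. Twist2, its paralog, on chromosome 9 from 98924134 to 98968510, had 1 and 2 reads, which allow no statement on direction (interval -3.76 to 6.39). Reads that fit both Twist genes may have been left out or split by the authors' counting. Together the 3 factors had 55 and 149 reads, at 0.94 (interval 0.49 to 1.42), and Prrx1 supplied most of them in both libraries.

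The start regions of the Twist genes, unlike that of Prrx1, are rich in G and C. The 100 bases before the start of Twist1 (GRCr8, chr6:56402209-56402308, plus strand) are shown as the case with the largest log2 ratio at the floor, with capitals for the GC box GGGCGG, here on the opposite strand:
Twist1: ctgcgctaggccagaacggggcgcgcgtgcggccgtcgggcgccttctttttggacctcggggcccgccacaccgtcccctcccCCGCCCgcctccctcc
This stretch holds 77% G and C and 14 CG pairs, and that of Twist2 holds 83% and 17, against medians of 54% and 3 over all promoters. The stretch of Prrx1 holds 49% and 3. Among the surface genes, that of Cd34 holds 78% and 11, so this richness is not particular to the Twist genes. A match to the GC box, again a run of letters only, was found in 21.6% of all promoters and in 4 of the 9 genes with an entry (Cd34, Prrx1, Twist1 and Twist2).

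Vim and S100a4, the intracellular members, were both higher in the DA-DDH library. Vim encodes vimentin, the intermediate filament of mesenchymal cells, and spans bases 80882715 to 80891200 of chromosome 17 in rn6. It had 1264 and 3001 reads and a log2 ratio of 0.76 (interval 0.66 to 0.85), the most precise ratio of the 10 genes, and lay above 90.3% of genes at the floor. S100a4, a small calcium-binding protein also called fibroblast-specific protein, on chromosome 2 from 189997278 to 189999586, had 40 and 113 reads, at 1.00 (interval 0.47 to 1.56), just short of the 2-fold line, with Cd34 at 1.03 just past it. These ratios sat on either side of the line by less than their counting error. The start regions of both genes hold a match to the TATA box (TATAAA, in capitals). This match was found in 5.78% of all promoters and in no other of the 9 genes with an entry. They are shown on GRCr8 at chr2:178388429-178388528 and chr17:81577161-81577260, both on the plus strand:
S100a4: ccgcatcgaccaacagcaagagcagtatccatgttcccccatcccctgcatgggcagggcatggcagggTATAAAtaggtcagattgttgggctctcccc
Vim: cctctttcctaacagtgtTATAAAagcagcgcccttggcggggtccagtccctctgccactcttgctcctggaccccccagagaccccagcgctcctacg
The match begins 31 bases before the start of S100a4 and 82 bases before that of Vim. It is a run of letters, and whether it acts as a TATA box was not tested.

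**Figure D2:**
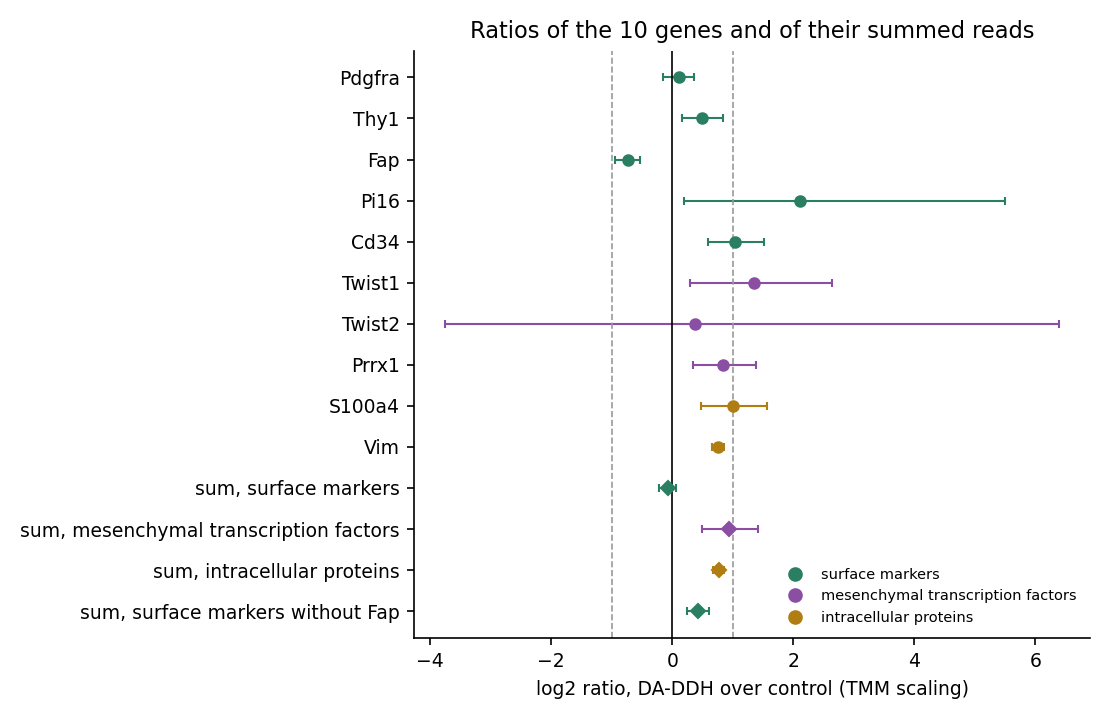
Log2 ratio of DA-DDH over control (TMM scaling) for each of the 10 genes (circles) and for summed reads of each class (diamonds), with 95% exact conditional intervals; dashed lines mark 2-fold. The summed surface genes lie at -0.08 with Fap and at 0.42 without it, and the summed transcription factors at 0.94.

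Surface genes and transcription factors were then compared as classes. The 5 surface genes summed to 805 control and 1072 DA-DDH reads, at -0.08 (interval -0.21 to 0.05) with TMM and at 0.35 with total-count scaling, whereas the 3 factors were at 0.94 and 1.36. Within the libraries, the factors went from 0.0683 control to 0.139 DA-DDH reads per surface gene read, a log2 change of 1.02 (interval 0.55 to 1.52). Without Fap the surface genes had 379 and 712 reads, at 0.42 (interval 0.24 to 0.60), and the factors went from 0.145 to 0.209 reads per surface read, a change of 0.53 (interval 0.03 to 1.04). Taken as means of the log2 ratios of single genes, which give Pi16 and Twist2 the weight of Fap and Prrx1, the factors exceeded the surface genes by 0.25. Without Cd34 the change was 1.15, and without the gene with the most reads in each class it was 0.90, resting on Twist1 and Twist2 alone. The lead of the factors over the surface class thus ran from 0.25 to 1.15, depending on which genes are counted and how they are weighted.

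Set against each surface gene in turn (5 comparisons), the factors did not lead over all of them. Per Pdgfra read they went from 0.259 to 0.464, a log2 change of 0.84 (interval 0.31 to 1.38), and per Fap read from 0.129 to 0.414 (1.68, interval 1.18 to 2.20). Per Thy1 read they went from 0.50 to 0.683 (0.45, interval -0.13 to 1.04). Per Cd34 read they were at 1.00 and 0.937 (-0.09, interval -0.76 to 0.57). Per Pi16 read the change was -1.36, with an interval from -4.59 to 0.83. So the factors gained on Pdgfra and Fap beyond counting error, Fap being itself lower in the DA-DDH library. For Thy1, Cd34 and Pi16 the interval included 0. Against Vim the change was 0.19 (interval -0.28 to 0.67).

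**Figure D3:**
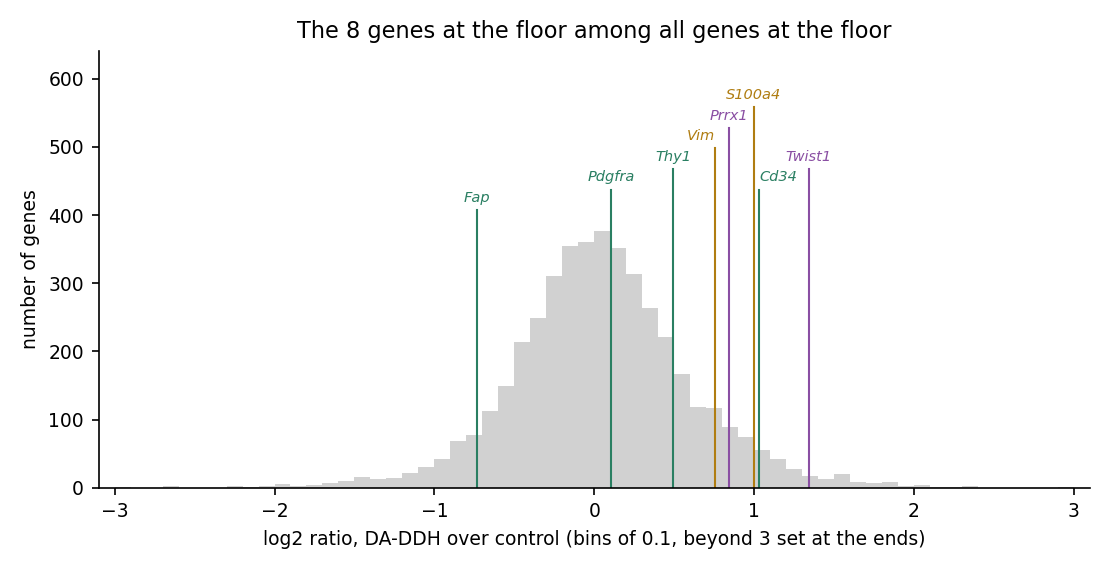
Number of genes by log2 ratio of DA-DDH over control (bins of 0.1) among the 4375 genes with 30 or more reads in either library, with vertical lines at the 8 genes of the set that reached this floor. Fap lies in the left tail, Pdgfra in the middle, and Twist1 at 1.34 in the right tail.

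Levels of different genes were compared as reads per 1000000 reads, divided by kilobases of annotated exon. They are per total reads of each library, without TMM scaling, and serve to compare genes within a library. In the control library, Vim was at 883 and ranked 28 of 17337 genes, and Fap followed at 233. Thy1 (104) and S100a4 (103) came next, then Cd34 (59.5), Prrx1 (41.0) and Pdgfra (40.8), and last Twist1 (7.55), Pi16 (1.33) and Twist2 (1.06). Of the 9 neighbouring pairs in this order, 4 did not differ beyond counting error, namely Thy1 and S100a4, Cd34 and Prrx1, Prrx1 and Pdgfra, and Pi16 and Twist2. In the DA-DDH library, Vim was at 2004, at rank 10. S100a4 came second at 279, ahead of Thy1 (197), Fap (188) and Cd34 (164), which could not be told apart as neighbours, and then came Prrx1 (99.4), Pdgfra (59.1), Twist1 (26.4), Pi16 (8.93) and Twist2 (2.03). Fap went from rank 147 to 229 among all genes, and S100a4 from 339 to 149. Prrx1, level with Pdgfra in the control (log2 ratio of levels 0.01, interval -0.49 to 0.48), was above it in the DA-DDH library (0.75, interval 0.43 to 1.06).

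**Figure D4:**
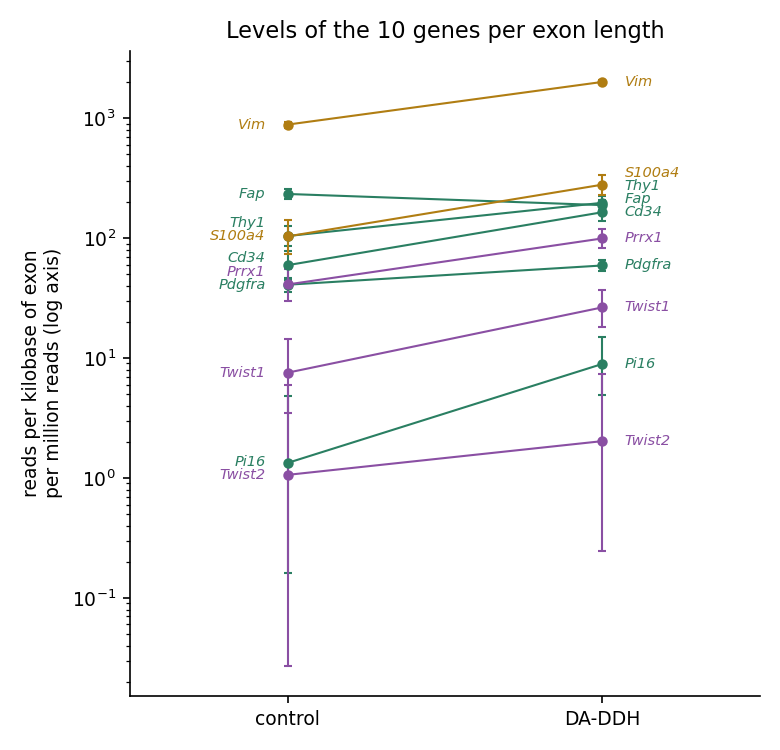
Reads per kilobase of exon per 1000000 reads (log axis) of the 10 genes in the control and the DA-DDH library, with 95% exact Poisson intervals; lines join the same gene and colours give its class (green for surface genes, purple for transcription factors, brown for intracellular proteins). Vim goes from 883 to 2004, and Fap is overtaken by S100a4. Levels are per total reads of each library, without TMM scaling, so the slopes of the lines are not the reported ratios.

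Other genes with the same roles were taken from lists. Of 22 other surface genes of fibroblasts and progenitors, 15 reached the floor, 10 were above 0, none was more than 2-fold higher and 1 was more than 2-fold lower. Summed over all 22, they had 3886 and 5441 reads, a log2 ratio of -0.006 (interval -0.07 to 0.05). Without Lrp1, the one with the most reads, the sum was at 0.29. Cd44, the hyaluronan receptor, had 129 and 337 reads (log2 ratio 0.89, interval 0.60 to 1.20) and Eng, a TGF-beta coreceptor that endothelium also makes, 85 and 212 (0.82). On the lower side were Islr, a marker of stromal cells, with 105 and 77 reads (-0.93, interval -1.38 to -0.50), and Tnfrsf11b, the decoy receptor osteoprotegerin, which is secreted, with 74 and 48 (-1.11, interval -1.67 to -0.57). Fap was therefore not the one gene of its kind with fewer reads. Pdgfrb, the other PDGF receptor, had 172 and 348 reads, at 0.52 (interval 0.26 to 0.80), and went from 0.811 to 1.08 reads per Pdgfra read (0.42, interval 0.04 to 0.79). Of the PDGF ligands, Pdgfa had 23 reads in each library and none reached the floor.

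Among 29 other transcription factors of mesenchyme, 13 reached the floor, 10 were above 0, 2 were more than 2-fold higher and none was 2-fold lower. Of the 13, 4 reached it through the DA-DDH library only, which in part set their place above 0. The highest were Osr1, a factor of connective tissue progenitors in the mouse limb, with 9 and 40 reads (1.62, interval 0.59 to 2.89), and Tbx18, with 9 and 30 (1.21, interval 0.13 to 2.50), both at the floor through the DA-DDH library only. Zeb2, a zinc finger repressor of epithelial genes, had 63 and 174 reads (0.97, interval 0.55 to 1.41), and Ebf1 45 and 111 (0.80). Summed over all 29, the factors had 982 and 1485 reads, a log2 ratio of 0.10 (interval -0.01 to 0.22). Without Nfix, the one with the most reads, the sum was at 0.30, beside 0.94 for the sum of Twist1, Twist2 and Prrx1. The other surface genes lay close to this, at -0.006, or 0.29 without Lrp1. A lead like that of the 3 factors over the surface class was thus not seen between these wider lists. Of 8 partners and inhibitors of Twist dimers, 5 reached the floor and 1 was above 0. Tcf4 and Tcf12, E proteins that form dimers with Twist1, were at -0.04 (81 and 111 reads) and 0.22 (80 and 131), and Id2, which takes E proteins out of such dimers, was at -0.97 with 80 and 57 reads.

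Secreted genes of fibroblasts and adventitial progenitors were spread widely. Of 22 found, 14 reached the floor, 10 were above 0, 4 exceeded 2-fold upward and 1 downward. Of the 4, 2 (Fbln1 and Sfrp4) reached the floor through the DA-DDH library only, so that count is in part set by the floor. Cxcl12, a chemokine of stromal progenitors, had 32 and 103 reads (1.18, interval 0.61 to 1.81). Fbln1 had 10 and 31 reads (1.11) and Sfrp4, a Wnt antagonist, 11 and 34 (1.11). The matricellular gene Smoc2 had 231 and 131, at -1.31 (interval -1.63 to -0.99). Genes akin to Vim and S100a4 were mostly higher. Of 19 genes, mostly S100 proteins and filament genes, 12 reached the floor. Of these 12, 9 were above 0, beside 52.6% of all genes at the floor. Among the 9 were S100a10 at 0.89 (66 and 173 reads), the nuclear lamin Lmna at 0.66 (421 and 937) and Nes, which encodes nestin, at 0.66 (31 and 69). Gfap had 42 and 22 reads, at -1.40 (interval -2.24 to -0.65). Set against Lmna, Vim had 3.00 and 3.20 reads per Lmna read (log2 change 0.09, interval -0.10 to 0.29).

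Markers of other cells that make some of these genes moved too. Of 14 endothelial markers 11 reached the floor, 4 of them through the DA-DDH library only, which in part set their direction, and the other 7 were above 0. All 14 summed to 513 control and 1465 DA-DDH reads, at 1.02 (interval 0.88 to 1.17). Of the defining pair, Pecam1 had 70 and 187 reads and Cdh5 69 and 202, and 1 marker, Robo4, was at 0 in both, which allows up to 3 reads in each. Set against this sum, Cd34 had 0.107 control and 0.109 DA-DDH reads per endothelial read (log2 change 0.02, interval -0.46 to 0.51). Leukocyte and macrophage markers, 15 of 16 listed being found, had 185 and 637 reads, at 1.29 (interval 1.05 to 1.54). Of these markers 5 reached the floor, 4 through the DA-DDH library only, and all 5 were above 0. Lyz2 was at 76 and 288, the defining Ptprc at 10 and 41 and the T cell genes Cd3e and Cd3d at 0 in both. The list was not uniform below the floor. Fcer1g had 12 and 8 reads (-1.02) and Tyrobp 12 and 13 (-0.36), each with an interval that included 0. S100a4 had 0.216 and 0.177 reads per read of that list (log2 change -0.29, interval -0.88 to 0.33). Vim had 2.46 and 2.05 reads per endothelial read (log2 change -0.27, interval -0.44 to -0.09). The part of endothelium and leukocytes in the values of Cd34, S100a4 and Vim was not tested.

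Nerve markers bear on Thy1. The 10 nerve and Schwann cell markers had 122 and 136 reads, 107 and 100 of them from S100b, which chondrocytes also make, and Rbfox3, which defines neurons, was at 0 in both libraries. Thy1 went from 0.902 to 1.60 reads per read of all 10 markers (log2 change 0.83, interval 0.33 to 1.33). Without S100b, the other 9 markers had 15 and 36 reads, and Thy1 went from 7.33 to 6.06 reads per read of them (log2 change -0.28, interval -1.31 to 0.70). The part of nerve in the values of Thy1 was not tested. Smooth muscle and pericyte markers had 1010 and 1752 reads (0.30, interval 0.19 to 0.42), or 538 and 1257 (0.73, interval 0.59 to 0.88) without Cspg4, and 8 of the 9 at the floor were above 0. Skeletal muscle markers had 592 and 2281 (1.45, interval 1.32 to 1.59), of which Acta1 gave 155 and 659. The 8 adipocyte markers had 118 and 286 reads (0.78, interval 0.47 to 1.11). Osteoblast markers had 1226 and 1908 reads (0.15, interval 0.04 to 0.25), but the direction turned without Spp1, at 728 and 827 (-0.31, interval -0.45 to -0.16), and 2 of the 5 at the floor were above 0. The 9 blood stem cell and mast cell markers, none at the floor, had 41 and 57. Chondrocyte genes were lower, all 12 found having a ratio below 0, also with total-count scaling. The part of muscle, fat and pericytes in the ratios of the 10 genes was not tested.

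**Figure D5:**
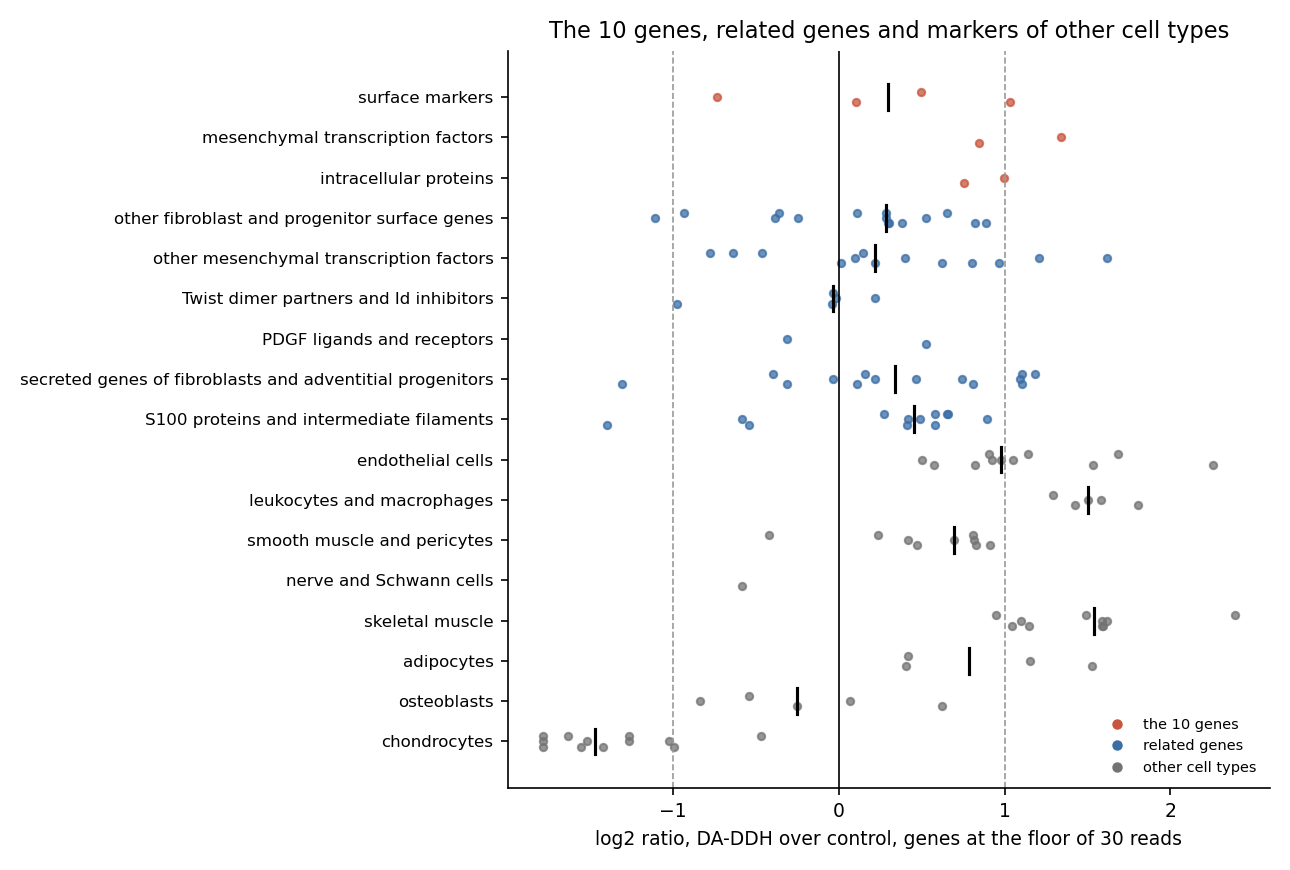
Log2 ratio of DA-DDH over control for genes with 30 or more reads in either library, by list; each point is a gene, black bars are medians of lists with 3 or more such genes, and dashed lines mark 2-fold. Endothelial and leukocyte markers lie above 0, 4 of 11 and 4 of 5 of them at the floor through the DA-DDH library only, with chondrocyte genes below 0, and the related surface genes and factors on both sides.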

How the data were processed

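RNA-seq of acetabular cartilage was used from 1 control and 1 DA-DDH library of pooled RNA. The deposited table is on rn6; TopHat and Cufflinks stand in the submitters' processing notes, with no version. The tool that counted reads per gene and its use of strand are not given in the sources used here. The labels name a total RNA kit and the methods an mRNA kit. The deposited signal columns hold read counts multiplied by 1 factor per library, 1.20 and 0.855 per read. In both libraries 100% of values were whole multiples of that step (relative tolerance 1e-06), and reads were recovered by division. Exon lengths were taken from the table. Fold, p, q, rank and call columns of the authors' comparison were not used.

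TMM factors came from edgeR 4.0.16 under R 4.3.3. A prior of 0.5 reads, spread in proportion to library size, was added before log2 ratios were taken. Intervals are exact conditional binomial (Clopper-Pearson) for ratios, exact Poisson for levels and exact conditional for ratios within libraries, at 95%. No count test was run, since there is no residual degree of freedom. The calculations were tested on simulated data with counting error only, the error the intervals assume. That check of the arithmetic says nothing on variation between rats. The members and gene lists were chosen with earlier results of these data known. All members are named, with up to 4 genes of each related list by absolute log2 ratio and up to 3 markers of each other cell type by reads. Pecam1, Ptprc, Cd3d, Cd3e, Fcer1g, Tyrobp, Rbfox3, Robo4, Pdgfa, Nfix, Lrp1 and Sox9 lie outside this rule and were chosen after their values were seen. Mkx, Clec3b, Fbln2, Pcolce2, Cd79a, Ifitm5, Cnmd, Col9a3 and Snorc, of the lists, were not analysed here, and no 0 was taken as absence. Eng, Pdgfrb, Des, Ngfr and S100b stand in more than 1 list. DESeq2 1.42.0 gave the median-of-ratios factors, and Python 3.11.15 with scipy 1.17.1 was used.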

Additional observations from a re-analysis of the deposited data

How the results depend on the processing

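With 1 pooled library per condition no library could be left out, and no paired analysis was possible. The 10 genes were recomputed under 7 alternatives of scaling and prior. All 70 values kept their direction, and 65 stayed within the interval of the reported value. Only Fap could have turned under these alternatives, so the count of 70 is no support for the direction of the other genes. Total-count scaling put 5 genes more than 2-fold higher, beside 14.6% of all genes, moved the median of the 8 genes to 1.22 and turned the summed surface genes to 0.35. With a floor of 100 reads 1 gene, Cd34, was more than 2-fold higher, beside 2.89% of all genes at that floor. Cd34 reached it through the DA-DDH library only, so that call is in part set by the floor. At a threshold of 1.5-fold 5 were higher, beside 14.4% of all genes, and 1 lower, beside 10.3%. Without Fap, the surface gene with the most reads, the summed surface genes were at 0.42, and the lead of the transcription factors, an alternative added after seeing the data, was 0.53. As a difference of mean log2 ratios that lead was 0.25. Without Cd34 it was 1.15. Without the most abundant gene of either class it was 0.90, resting on Twist1 and Twist2 alone. Without the gene with the most reads in each, also added after seeing the data, the summed osteoblast markers turned from 0.15 to -0.31 (Spp1 left out). Depth limits Pi16 and Twist2 most.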
